A study of Mus musculus with 18 samples.

Results

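RNA made from a pooled library of DNA inserts was compared between mouse embryonic stem cells given an siRNA against ZC3H4 (siZC3H4) and cells given a non-targeting siRNA (siNT), with 3 cultures each. The comparison used the RNA and the genomic DNA (gDNA) library of each of these 6 cultures, 12 of the 18 libraries of the series. The remaining libraries came from cells given an siRNA against WDR82. An insert was used if its gDNA reads averaged 20 or more over the 6 cultures, with no minimum on RNA, so that an insert without RNA entered whatever its reads after depletion. This kept 15553 of 16461 inserts.

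All cultures had the same genotype, in female cells of a CAST/129 hybrid background. Its 3 elements, all on the 129 allele, are Oct4C::TagBFP2(129), then Oct4ua157::INSERT-seqlibrary(129), the insert library in the Oct4 upstream antisense RNA (uaRNA), and, in the same uaRNA, Oct4ua172::mKate2(129), a fluorescent reporter. Both siRNAs were used at 30 nM. The siWDR82 cultures, used here for a ranking and a comparison, carry doses of 30, 31 and 32 nM in their labels, although a single dose of 30 nM stands in the transfection protocol. The labels do not state the time from transfection to harvest. The cells were kept in medium with LIF and inhibitors of MEK and GSK3. The libraries are amplicons of the insert locus and hold no reads of Zc3h4 (chromosome 7, 16399583 to 16437696), so the degree of depletion and the cell type could not be checked here. The labels call the cultures biological replicates, and p-values measure the spread between these cultures. In bulk RNA, more RNA in each cell that carries an insert and RNA in more of those cells cannot be told apart.

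ZC3H4 is a zinc finger protein that, with WDR82, forms the core of Restrictor, a complex that attenuates early transcription by RNA polymerase II. Restrictor is known for acting on short noncoding transcripts such as upstream antisense and enhancer RNAs, while productive genes largely escape it. Recognition of splice sites is known to protect transcripts from early termination. INSERT-seq asks which sequences make a transcript sensitive: inserts are placed at a fixed position of a noncoding transcription unit, and the RNA reads of each insert are set against its gDNA reads, its representation among the cells.

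The tables name inserts by number only and give no insert sequence. To show the setting, the start of the annotated RNA antisense to Pou5f1, the gene of Oct4, is printed from RefSeq. Gm32362 is a long noncoding RNA on the minus strand of chromosome 17 (35500641 to 35505737), and its start lies 295 bases upstream of the start of Pou5f1 (35506032 to 35510777, plus strand). The window chr17:35505688-35505987 (GRCm38.p6, C57BL/6J, minus strand, 5′ to 3′) has the 50 bases from the annotated start in capitals, after 250 bases of promoter in lower case. The labels do not say which base of this strand the inserts follow, nor whether the uaRNA is this annotated RNA.
Gm32362 promoter: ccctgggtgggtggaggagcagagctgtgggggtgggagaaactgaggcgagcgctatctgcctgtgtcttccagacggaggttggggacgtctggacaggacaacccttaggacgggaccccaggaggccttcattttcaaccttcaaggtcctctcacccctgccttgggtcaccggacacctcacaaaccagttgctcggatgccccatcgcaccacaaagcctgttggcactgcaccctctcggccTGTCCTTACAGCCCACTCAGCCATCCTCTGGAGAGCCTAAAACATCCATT
Both strands of the window were searched for a poly(A) signal (AATAAA) and a consensus 5′ splice site (GTAAGT), signals that bear on whether a transcript is ended early or spliced. Neither was found, while 19.6% and 7.65% of 32851 RefSeq promoter windows of this length held them. Only 50 bases of the window lie within the annotated RNA, so the search says little about the transcript itself.

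RNA libraries held 32173068 to 52840375 insert reads. The gDNA libraries held 10637938 to 11510602 reads, except for siZC3H4 replicate 3 with 4636879. That culture had a median of 217 gDNA reads per insert against 510 to 550 in the others. The level of an insert is given throughout as log2 RNA over gDNA, where each is in CPM (reads scaled to the library's insert total) plus 0.5. RNA is the sum of unspliced and spliced reads of an insert. Spliced forms are listed for 2268 of the inserts used, 1 form for 2127 and 2 or more for 141. The other 13285 have none listed.

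With siZC3H4 the RNA levels of inserts lay closer together: the bottom of the range stood higher than in siNT and the top stood lower. The 5th percentile of levels was -5.20, -4.82 and -4.47 in the siNT cultures and -3.57, -3.63 and -3.54 in the siZC3H4 cultures. The 95th percentile was 1.88, 1.91 and 1.94 in siNT and 1.52, 1.62 and 1.59 with siZC3H4. At both ends every siZC3H4 culture lay nearer the middle than every siNT culture. The mean shift was 1.28 at the 1st percentile, 0.64 at the 25th, 0.36 at the median and 0.10 at the 75th, then -0.33 at the 95th and -0.93 at the 99th, on the scale of library totals. In each siNT culture 942 to 1224 inserts had no RNA read. The siNT levels at the 1st and 5th percentiles thus rest largely on the 0.5 CPM added and on gDNA. The exact permutation p was 0.1 at all 7 percentiles (two-sided, n = 3 cultures each), which is the smallest that 3 against 3 cultures can give.

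**Figure D1:**
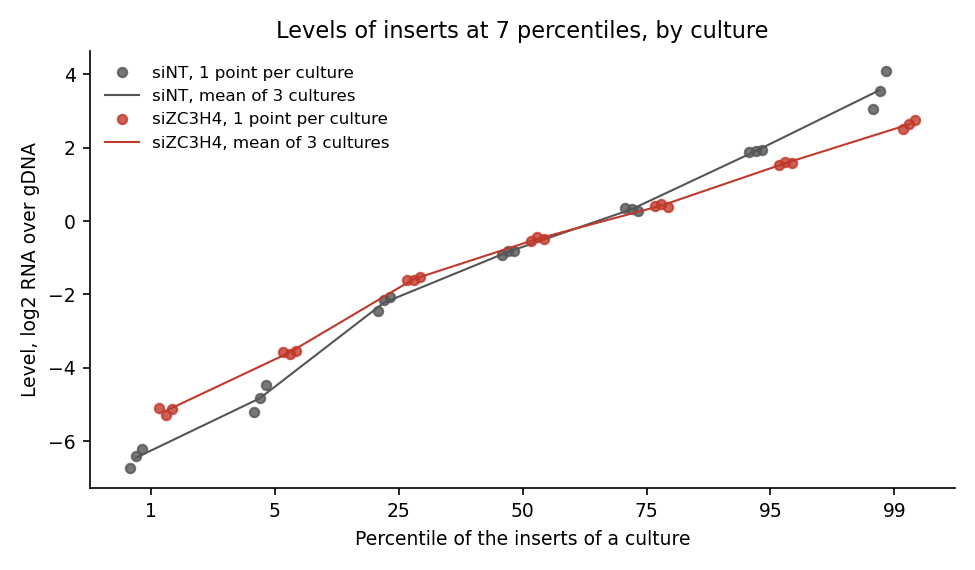
Level of inserts (log2 RNA over gDNA, y axis) at 7 percentiles of the 15553 inserts (x axis, evenly spaced positions), with 1 point per culture and lines through the means of 3 cultures. The siZC3H4 points lie above the siNT points up to the 75th percentile and below them at the 95th and 99th.

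The interquartile range of levels was 2.81, 2.48 and 2.36 in siNT and 2.02, 2.07 and 1.93 with siZC3H4, without overlap. The means were 2.55 ± 0.23 and 2.01 ± 0.073, a difference of -0.54 (SD, n = 3; exact permutation p = 0.1, adjusted p = 0.123 over 38 quantities compared). In the same cultures the interquartile range of log2 gDNA was 2.19 ± 0.18 and 1.95 ± 0.082, with overlap between the groups (exact permutation p = 0.2, n = 3). Single inserts also varied less between siZC3H4 cultures, with a median SD of 0.54 against 0.74 between siNT cultures. The spread that cultures of a group share, taken as the square root of the covariance of levels between pairs of cultures, leaves out noise that is independent between cultures. It was 1.62 to 1.68 over the 3 siNT pairs and 1.32 to 1.38 over the 3 siZC3H4 pairs. The slope of siZC3H4 levels on siNT levels, taken from these covariances, was 0.71, 0.71 and 0.74 in the 3 cultures. Among siNT cultures the same slope ran from 0.92 to 1.08. These are descriptions over inserts, which are not independent, and were chosen after the interquartile ranges were known.

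The most abundant inserts held a smaller share of RNA reads with siZC3H4. The top 1% of inserts by RNA held 12.9, 13.3 and 17.9% of insert RNA reads in siNT and 9.63, 9.96 and 10.1% with siZC3H4. The mean shares differed by -4.76 percentage points, and by -3.14 without siNT replicate 3, the highest culture. The top 1% by gDNA held 7.85 ± 0.36% of gDNA reads in siNT and 8.48 ± 0.46% with siZC3H4 (n = 3).

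The difference was graded along the range of levels. Inserts were ranked in 1 siNT culture into 10 equal bins, and changes were measured against the other siNT cultures, each in turn, which keeps noise of the ranked culture out of the change. From bin 1, the lowest, to bin 10, the highest, the median log2 change with siZC3H4 was 0.90, 0.80, 0.76, 0.62, 0.52, 0.42, 0.29, 0.14, -0.037 and -0.37, with an SD over the 3 siZC3H4 cultures of 0.031 to 0.054. These SDs leave out the spread of siNT, which all 3 cultures share as the reference. In bins 1 to 8, every siZC3H4 culture lay above the range of siNT cultures set against each other, and in bin 10 every siZC3H4 culture lay below it. In bin 9 the ranges overlapped. The gDNA of the same bins moved by medians of 0.00090 to 0.16, with 0.16 in bin 1 and 0.14 in bin 10. RNA alone changed by 1.02 in bin 1 and by -0.23 in bin 10, so part of the fall in bin 10 lies in gDNA. Bin 1 had a median siNT level of -4.83 and bin 10 of 1.91. In the ranked siNT culture the median insert of bin 1 had 1.33 RNA reads on average, against 191 in bin 2. Levels in bin 1 thus rest largely on the 0.5 CPM added and on gDNA.

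**Figure D2:**
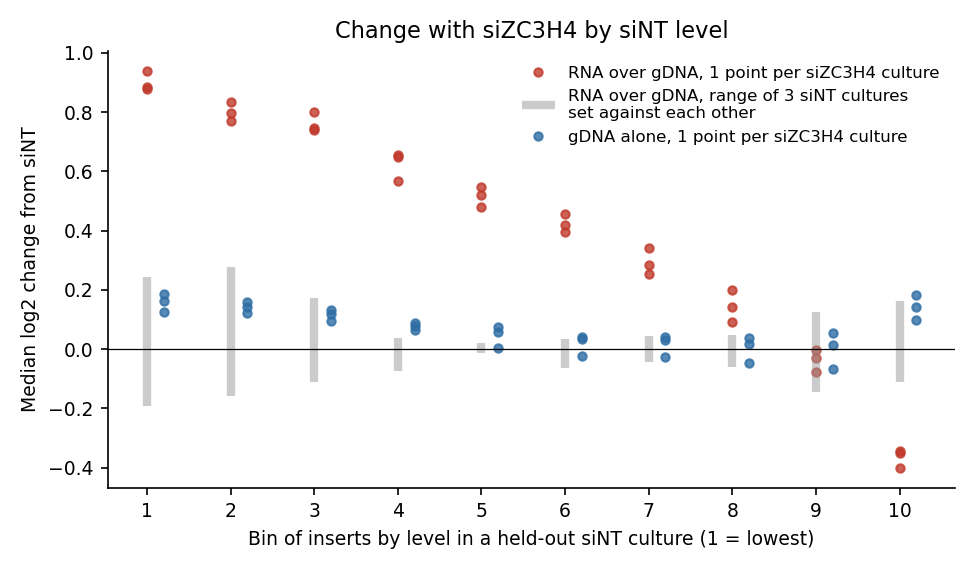
Median log2 change from siNT (y axis) for 10 bins of the inserts ranked by level in a held-out siNT culture (x axis, from low to high), with 1 point per siZC3H4 culture for RNA over gDNA and for gDNA alone, and bars for the range of the 3 siNT cultures set against each other. The RNA over gDNA points descend from a mean of 0.90 in bin 1 to -0.37 in bin 10. The gDNA means are 0.16 in bin 1 and 0.14 in bin 10, and lower in between.

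A ranking in the siWDR82 cultures, which enter neither side of the comparison, placed the largest difference in bin 2 rather than in the lowest bin. From the lowest to the highest of 5 bins they were 0.47, 0.56, 0.45, 0.26 and -0.010, where the held-out siNT ranking gave 0.85, 0.69, 0.47, 0.22 and -0.20. The lowest of 5 bins in that ranking had a median level of -2.77 ± 0.26 in siNT and -2.31 ± 0.033 with siZC3H4, and the highest bin 0.91 ± 0.084 and 0.90 ± 0.015 (n = 3). The lowest bin minus the highest was 0.48 higher with siZC3H4 (exact permutation p = 0.1, n = 3), or 0.30 higher without siNT replicate 1. With the held-out siNT ranking the same difference was 1.05.

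The sign of the difference at the top of the range depends on the scale. The spike-in RNA added to each culture gives a measure of total insert RNA. For each spike-in read there were 26.0, 39.7 and 37.6 insert reads in the siNT cultures and 25.4, 59.5 and 79.5 in the siZC3H4 cultures. The groups overlapped, since siZC3H4 replicate 1 lay below all siNT cultures and the other 2 above them (exact permutation p = 0.4, n = 3). The mean difference was 20.4, but 7.98 without siZC3H4 replicate 3 and 35.0 without siZC3H4 replicate 1. With RNA scaled to the spike-in reads, the highest of 5 bins changed by -0.63, 0.65 and 1.01 in the 3 siZC3H4 cultures, a mean of 0.34 in place of -0.20. The difference between the lowest and the highest bin is the same on both scales by construction, since the scaling shifts all inserts of a culture alike.

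Fewer inserts lacked an RNA read with siZC3H4. At an equal depth of 32173068 RNA reads, 1384, 1286 and 1062 inserts lacked an RNA read in the siNT cultures, and 485, 587 and 663 in the siZC3H4 cultures. The groups did not overlap, with means of 8.00 ± 1.06% and 3.72 ± 0.57% of inserts (SD, n = 3; exact permutation p = 0.1). Without thinning, 942 to 1224 inserts per siNT culture and 463 to 587 per siZC3H4 culture lacked a read. No RNA was read in any siNT culture from 314 inserts. Of these, 63 had reads in all 3 siZC3H4 cultures, 88 in 2, 71 in 1 and 92 in none. In the other direction, 168 inserts had no RNA read in any siZC3H4 culture, and of these 18 had reads in 2 siNT cultures, 58 in 1 and 0 in all 3.

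The gained reads were mostly not single reads. Among the 314 inserts, 436 siZC3H4 library counts were above 0, with a median of 62 reads, and 83.3% of them reached 10 reads or more. The highest count was 744. In the other direction, the 168 inserts without RNA in all siZC3H4 cultures had siNT counts above 0 with a median of 36 reads and a highest of 641. Reads are not independent molecules, so these counts do not show how many molecules were gained or lost. The 314 inserts were also rare in the pool, with a median of 57.5 gDNA reads per culture against 492 for all inserts used. The 92 of them that stayed without RNA in all 6 cultures had a median of 36.5. Representation also differed between cultures: 120, 230 and 266 of the inserts used had no gDNA read in the siNT cultures, and 54, 106 and 133 in the siZC3H4 cultures, so the groups overlapped, with siNT replicate 1 below siZC3H4 replicate 3. Among inserts with a mean of 100 or more gDNA reads, the share without an RNA read at equal depth differed by -3.255 percentage points between the groups, against -4.28 for all (exact permutation p = 0.1 each, n = 3).

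The siNT cultures themselves gave the background of such gains. Of 543 to 646 inserts at 0 in a given pair of siNT cultures, 34.4, 36.5 and 44.9% had an RNA read in the held-out siNT culture. In the siZC3H4 cultures 63.1, 56.1 and 52.2% of the same inserts had a read, as means over the 3 choices of pair. Each siZC3H4 culture exceeded the held-out siNT culture in every choice. With at least 10 reads as the mark, the shares were 28.7 ± 4.7% in held-out siNT and 50.2 ± 5.5% with siZC3H4 (n = 3).

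**Figure D3:**
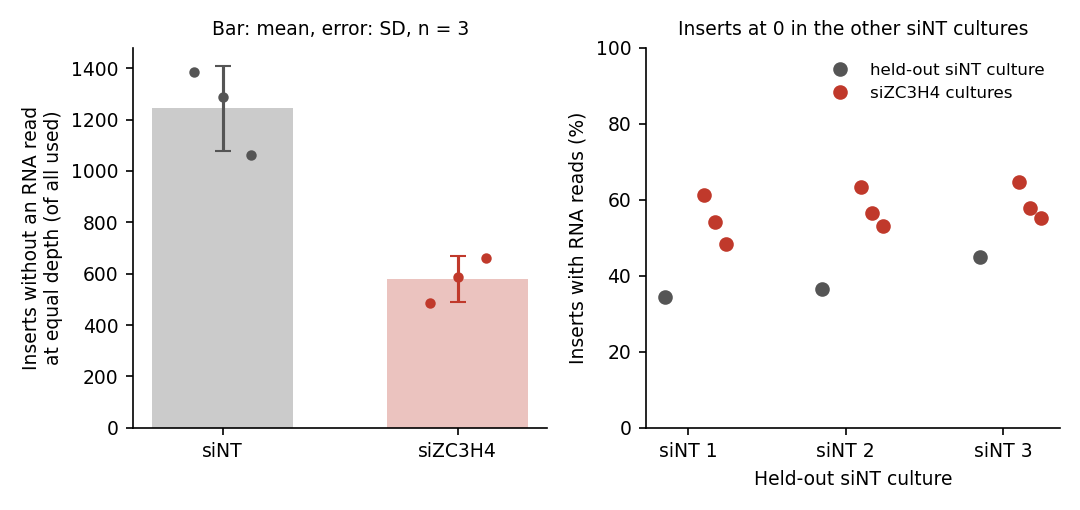
Left, inserts without an RNA read at equal depth (y axis) by siRNA, with bars for means, error bars for SD and points for the 3 cultures of each group. Right, percent of inserts with RNA reads (y axis) among those at 0 in the other siNT cultures, by held-out siNT culture (x axis). Every siZC3H4 point lies above the siNT point beside it.

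No single insert passed the test. With RNA and gDNA paired by culture, edgeR's quasi-likelihood test called 0 inserts higher and 0 lower of 15553 (0.0% each; adjusted p under 0.05), the lowest adjusted p being 0.0655. At an unadjusted p under 0.05 there were 1179 higher (7.58% of all tested) and 820 lower (5.27%). In simulated counts, recovery by this paired test was 0% where the change was 2-fold. It rose to 17.9% at 4-fold and to 43.9% at 8-fold. The absence of calls thus says little about changes of 4-fold or less in single inserts. Without the pairing, edgeR called 22 higher (0.141%) and 1 lower (0.00643%). DESeq2 with the pairing called 557 higher and 421 lower, limma on log ratios called 0, and a fit that added the siWDR82 libraries called 54 higher and 13 lower. Leaving out siNT replicates 1, 2 and 3 in turn gave 34, 20 and 25 higher and 32, 0 and 1 lower, while leaving out any siZC3H4 replicate gave 0.

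Counted without a test, the 3 siZC3H4 cultures all lay above the 3 siNT cultures for 2795 inserts (18.0%) and all below them for 815 (5.24%), with levels on library totals. With each culture centred on its median insert, a scale chosen after the data were seen, the counts were 1517 (9.75%) and 1769 (11.4%). The order of the counts thus turns with the centring. Separation was more frequent where gDNA reads were many: of 5 bins by gDNA reads, 25.8% of inserts in the highest lay above siNT in all cultures, against 7.94% in the lowest.

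The insert with the lowest p for a rise was sequence_04143, which has no spliced form listed and does not pass the threshold. It had 1, 0 and 1 RNA reads in siNT and 348, 603 and 713 with siZC3H4. Its gDNA reads were 526, 1199 and 310 in siNT and 735, 922 and 251 with siZC3H4, so it was present in all cultures and nearly silent in siNT only. RNA reads per library total were 857-fold higher, with a 95% interval of 237 to 7086. This interval takes each read as an independent molecule, which the reads are not, and leaves out the spread between cultures, so it is too narrow. The edgeR log2 change was 8.72 (SE 1.03, adjusted p = 0.0655, or 0.00479 without the pairing).

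Among inserts with at least 20 siNT RNA reads in all, sequence_10809 had the lowest p for a rise. It gave 747, 541 and 381 RNA reads in siNT and 2339, 2261 and 3759 with siZC3H4, at gDNA reads of 1953, 2026 and 1357 and of 1519, 1622 and 813. Its level was -3.30, -3.73 and -3.75 in siNT and -1.33, -1.11 and -1.30 with siZC3H4. The groups are far apart, with a log2 change of 2.15 (SE 0.31, edgeR adjusted p = 0.0736, and 0.0187 with all 18 libraries).

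The lowest p for a fall belonged to sequence_03579, which also has no spliced form listed. Its level was -0.52, -0.83 and -0.89 in siNT and -2.39, -3.26 and -2.85 with siZC3H4. It gave 5391, 4383 and 2566 RNA reads in siNT and 1141, 714 and 1036 with siZC3H4, at 2002, 2132 and 1203 and at 1560, 2304 and 672 gDNA reads. The 3 siZC3H4 cultures lie well below siNT (log2 change -2.36, SE 0.33, edgeR adjusted p = 0.0736, and 0.0187 with all 18 libraries). Scaled to spike-in reads the change was -1.52 (edgeR adjusted p = 0.245). Its siNT level lies near the middle of the range, where the median insert stood higher with siZC3H4 (0.42 in bin 6).

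Inserts with a spliced form listed stood lower, relative to inserts without one, with siZC3H4 than in siNT. The median level of the class minus that of the other inserts was 0.97, 0.99 and 1.05 in siNT and 0.40, 0.43 and 0.55 with siZC3H4. The mean difference between groups was -0.55, without overlap (exact permutation p = 0.1, n = 3, adjusted p = 0.123). On library totals the median of the class itself moved by only -0.11 (0.021 ± 0.098 to -0.092 ± 0.086; exact permutation p = 0.3, n = 3), while inserts without a form moved by 0.43. With spike-in scaling the class median moved by 0.43 instead of -0.11.

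This difference was larger the more completely an insert's RNA was spliced. The share of spliced reads over all 6 RNA libraries was under 20% for 1128 inserts, 20 to 80% for 592 and over 80% for 543. For the inserts over 80% spliced, the median level minus that of inserts without a form was 2.47, 2.62 and 3.07 in siNT and 1.26, 1.25 and 1.64 with siZC3H4, a change of -1.34. For those 20 to 80% spliced it was 0.76, 0.75 and 0.95 in siNT and 0.15, 0.31 and 0.26 with siZC3H4, a change of -0.58. For those under 20% spliced it was 0.43, 0.48 and 0.46 in siNT and 0.18, 0.15 and 0.33 with siZC3H4, a change of -0.24. In each of these classes every siZC3H4 culture lay below every siNT culture (exact permutation p = 0.1, n = 3). In siNT the 20 to 80% class lay above the under 20% class in all 3 cultures, and with siZC3H4 in 1 of 3.

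Unspliced and spliced reads of these inserts differed from siNT by like amounts. In inserts over 80% spliced, the change against inserts without a form was -1.27 for unspliced and -1.37 for spliced reads. In inserts 20 to 80% spliced it was -0.54 and -0.64, and in inserts under 20% spliced -0.26 and -0.22. Relative to inserts without a form, the lower position was thus seen in both kinds of reads. In inserts under 20% spliced, however, spliced reads were few, at -4.68 in siNT and -4.91 with siZC3H4 relative to inserts without a form. The 0.5 CPM added weighs on these values, so the -0.22 says little about spliced RNA. Both kinds of reads are set against the same gDNA value of an insert, and inserts without a form themselves stood higher with siZC3H4 on library totals.

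**Figure D4:**
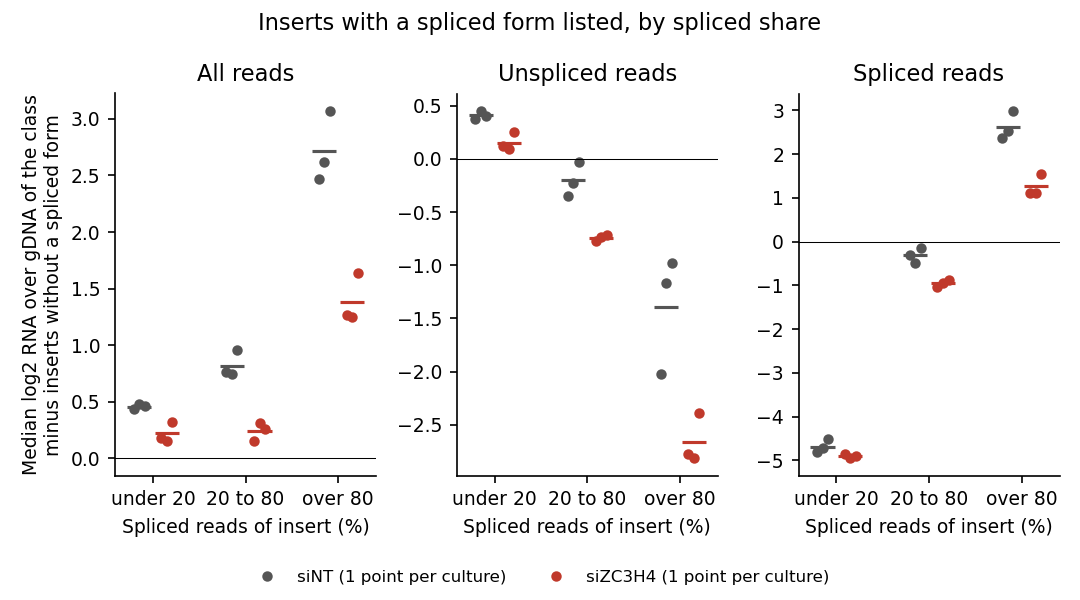
Median log2 RNA over gDNA of inserts with a spliced form listed, by their share of spliced reads (x axis), minus the median of inserts without a form (y axis), from all reads, unspliced reads and spliced reads, with 1 point per culture and lines for the means. In all 9 pairs of groups the siZC3H4 points lie below the siNT points.

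Highly spliced inserts also had the highest levels, where the graded change was negative. At matched siNT level, in 20 held-out groups, the change against inserts without a form was -0.84 ± 0.22 for inserts over 80% spliced, -0.44 ± 0.058 for 20 to 80% and -0.18 ± 0.051 for under 20% (SD, n = 3). The siNT cultures set against each other in this way ran from -0.53 to 0.90, from -0.16 to 0.29 and from -0.058 to 0.052. The siZC3H4 cultures lay below these ranges in all 3 classes, but for inserts over 80% spliced the least changed siZC3H4 culture, at -0.58, lay close to the lowest siNT culture.

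Counts of single inserts moved the same way. Of the 2268 inserts with a form, 320 were lower at an unadjusted p under 0.05 (14.1%, against 5.27% of all tested) and 61 higher (2.69%, against 7.58%). Of the 543 over 80% spliced, 173 were lower (31.9%) and 3 higher. With levels on library totals, all siZC3H4 cultures lay below siNT for 12.3% of the inserts with a form, against 5.24% of all, and above it for 8.73%, against 18.0%. None of these inserts passed the adjusted threshold in edgeR's paired test.

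The number of an insert is the one other feature the tables give. The class difference was smaller with siZC3H4 in all 6 consecutive ranges of numbers compared, of which ranges 1 to 4 end at inserts 4000, 5500, 9000 and 12000, range 5 is the next short stretch and range 6 holds all later numbers. In range 6 it went from 1.19 ± 0.062 to 0.41 ± 0.14, the largest difference of the 6, and in range 1 from 0.29 ± 0.046 to 0.095 ± 0.071, the smallest (n = 3; exact permutation p = 0.1 each). In range 5, where 380 of 474 inserts used have a form, it went from 3.00 ± 0.092 to 2.36 ± 0.16 (exact permutation p = 0.1, n = 3). In range 3 it went from 0.49 ± 0.21 to 0.18 ± 0.10, with overlap of the cultures (exact permutation p = 0.2, n = 3).

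Inserts without a form also differed in level between number ranges, and their median level was higher with siZC3H4 in all 6, by 0.18, 0.35, 0.52, 0.51, 0.27 and 0.58 in ranges 1 to 6. Range 5, with 94 such inserts and the lowest siNT level (-2.04), had the smallest difference after range 1. Those of range 4 had a median level of -1.98 ± 0.28 in siNT and -1.46 ± 0.065 with siZC3H4, and those of range 6 had -1.39 ± 0.14 and -0.81 ± 0.070 (n = 3; exact permutation p = 0.1 each). Those of range 1, the range with the highest level, went from 0.22 ± 0.15 to 0.40 ± 0.077, with overlap of the cultures (exact permutation p = 0.2, n = 3). At matched siNT level, the mean changes of ranges 1, 3 and 6 were -0.017 ± 0.10, 0.033 ± 0.036 and 0.030 ± 0.071 relative to the other inserts without a form. These lie within the spread of siNT cultures set against each other, with SDs of 0.32, 0.12 and 0.13. The 94 inserts without a form in range 5 stood at -0.46 ± 0.15 (siNT SD 0.24).

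Spliced reads made up less of the RNA with siZC3H4. They were 8.93, 7.48 and 8.35% of insert RNA reads in siNT and 5.08, 6.23 and 5.97% with siZC3H4, without overlap (exact permutation p = 0.1, n = 3). Inserts with a form gave 18.1 ± 0.64% of RNA reads in siNT and 15.0 ± 0.70% with siZC3H4, beside 12.3 ± 0.46% and 12.7 ± 0.43% of gDNA reads (n = 3). Within inserts that have a form, 47.4, 42.5 and 46.4% of RNA reads were spliced in siNT and 35.6, 40.0 and 39.1% with siZC3H4, a mean difference of -7.21 percentage points without overlap (exact permutation p = 0.1, n = 3). Over 1532 inserts with a mean of at least 20 reads of each kind, the log2 ratio of spliced to unspliced reads had a median of 0.016, -0.050 and -0.060 in siNT and -0.19, -0.20 and -0.13 with siZC3H4. The groups did not overlap, at a mean difference of -0.14 (exact permutation p = 0.1, n = 3), which was -0.12 to -0.23 with a culture left out. Among inserts with a mean of 100 or more gDNA reads it was -0.20 (exact permutation p = 0.2, n = 3).

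Per insert, edgeR's paired test of spliced over unspliced reads called 0 of 1532 inserts (0.0%), with 22 higher and 32 lower at an unadjusted p under 0.05. In simulated counts this test recovered 0% of 4-fold changes, so the absence of calls says little. The median fitted log2 change in edgeR was -0.066, with 52.8% of inserts below 0, and the median was 0.016 without siNT replicate 1. DESeq2 called 24 higher and 22 lower. The lowest p for a rise was that of sequence_01816, with 1, 0 and 0 spliced reads in siNT and 39, 71 and 107 with siZC3H4, beside 13829, 7126 and 16336 and then 5642, 8209 and 9630 unspliced reads (edgeR adjusted p = 0.176). Its spliced form made up 0.0027% of its RNA reads in siNT and 0.92% with siZC3H4. The lowest p for a fall was that of sequence_13868, which had 0, 1 and 0 unspliced reads in siNT and 79, 69 and 78 with siZC3H4, beside 839, 1998 and 3052 and then 1174, 755 and 2204 spliced reads (edgeR adjusted p = 0.230). With siZC3H4 it was still 94.8% spliced. The minimum of reads of each kind is a mean over all cultures. The spliced reads of sequence_01816 and the unspliced reads of sequence_13868 met it only through the siZC3H4 cultures. The choice of these inserts for the test thus rests on reads that the test itself compares. In 80 inserts with 2 or more forms and enough reads, the most used form took a median of 85.2 ± 4.0% of spliced reads in siNT and 79.6 ± 2.0% with siZC3H4, with overlap (exact permutation p = 0.2, n = 3).

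The representation of inserts in the cells, the background of every level, gave 0 calls. edgeR's test of gDNA called 0 of 15553 inserts (0.0%), with 437 higher and 395 lower at an unadjusted p under 0.05. In simulated counts it recovered 51% of 4-fold changes. DESeq2 called 8 higher and 1 lower, and edgeR without siNT replicate 1 called 89 higher and 8 lower. The lowest p for a rise was that of sequence_16103, with 1, 0 and 0 gDNA reads in siNT and 151, 66 and 132 with siZC3H4, although its RNA reads were 1282, 556 and 559 in siNT and 163, 319 and 1742 with siZC3H4 (edgeR adjusted p = 0.908). Its siNT levels of 4.68 to 5.64 therefore rest on gDNA counts at or near 0. This insert met the gDNA minimum, a mean over all cultures, only through its siZC3H4 reads. The lowest p for a fall was that of sequence_01385, with 2342, 6237 and 4519 gDNA reads in siNT and 1647, 1396 and 717 with siZC3H4 (edgeR adjusted p = 0.908). The narrower range of levels was seen at all depths of gDNA. In the highest of 5 bins by gDNA reads, the interquartile range of levels went from 1.98 ± 0.15 to 1.44 ± 0.037, and in the lowest from 3.27 ± 0.12 to 2.73 ± 0.075 (n = 3). The median level was 0.32 to 0.45 higher with siZC3H4 in the 4 upper bins, but differed by -0.023 in the lowest, where siNT cultures had an SD of 0.39.

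Against the cultures given siWDR82, those given siZC3H4 kept a wider range of levels, with an interquartile range of 2.01 ± 0.073 against 1.79 ± 0.081 (exact permutation p = 0.1, n = 3). The top 1% of inserts by RNA held 13.3, 13.1 and 10.2% of RNA reads in the siWDR82 cultures. Their mean of 12.2% lay between the means of siNT and siZC3H4, but the siWDR82 cultures overlapped those of siNT.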

How the data were processed

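INSERT-seq libraries of RNA and gDNA from 3 siNT and 3 siZC3H4 cultures were analysed. Per the labels' protocols, the locus was amplified by PCR from gDNA, and from RNA with spike-ins after DNase treatment and reverse transcription from mKate2. No molecular identifiers are mentioned, so reads are not independent molecules. The authors deposited raw read counts per insert, spliced form and spike-in. The tools named per the submitters' processing notes are STAR, SAMtools, Bowtie2 2.3.4.3 and cutadapt 1.14, with mm10; their roles are not stated.

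RNA over gDNA was tested with edgeR 4.0.16 (R 4.3.3; quasi-likelihood, culture as a block, TMM within each kind of library, Benjamini-Hochberg threshold 0.05). The pairing was checked: deviations of RNA and of gDNA from the group means correlated across inserts in 6 of 6 cultures (r = 0.29 to 0.41). No 2 libraries of a group were duplicates (chi-square per degree of freedom at least 46.7). Values per culture were compared by exact two-sided permutation. The smallest adjusted p over 38 quantities was 0.123, and 31 of them reached the smallest p of 0.1. Alternatives were DESeq2 1.42.0, limma 3.58.1, other scalings, filters, blocks and each culture left out. Scripts were tested on simulated data. Named inserts had the lowest p in each direction, among those whose groups did not overlap for RNA over gDNA. The members and lists were chosen with earlier results of these data known.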

Additional observations from a re-analysis of the deposited data

How the results depend on the processing

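Of 104 alternatives run for 11 per-culture and held-out results, 102 kept the direction, but some of them could not change the value. The CPM added does not enter shares of reads, inserts without an RNA read or the ratio of spliced to unspliced reads. Neither it nor the filters enter the insert reads per spike-in read, and spike-in scaling cancels in the lowest minus the highest bin. Spike-in scaling turned the highest of 5 bins from -0.20 to 0.34 and the class median from -0.11 to 0.43. Inserts called higher by edgeR, 0 with the pairing, numbered 22 with no replicate block, 8 with library totals, 37 with spike-in scaling, 54 with all 18 libraries and 557 by DESeq2; those called lower numbered 1 with no replicate block, 13 with all 18 libraries and 421 by DESeq2. Leaving out each culture gave 0 to 34 higher and 0 to 32 lower, 0 to 97 with changed gDNA, and 0 with changed splicing. DESeq2 called 9 for gDNA and 46 for splicing, and no replicate block 7 for splicing. The other edgeR filters, size factors, unspliced reads and the set number as a replicate block gave 0 calls of RNA over gDNA, as did limma. The set numbers share only a number: deviations of same-numbered siNT and siZC3H4 cultures correlated at 0.11, -0.0061 and 0.14. The lowest minus the highest of 5 bins, 1.05, was 0.89 to 1.05 with a culture left out and 0.48 ranked in siWDR82. With 2 CPM added in place of 0.5 it was 0.84. Centring, chosen after seeing the data, moved the non-overlapping counts from 2795 to 1517 above and from 815 to 1769 below. The median fitted log2 change of all inserts was 0.16 with TMM, 0.41 with library totals and 0.99 with spike-in scaling, so directions of single inserts are relative. Low gDNA depth limits the ratios: the median SD between siNT cultures was 1.45 in the lowest of 5 bins by gDNA and 0.41 in the highest. The causes were not tested.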
